A study of Mus musculus with 28 samples.

Results

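The comparison set splenic CD4+ T cells of the strain Sle1b.BACSlamf6-H1 (Sle1b.BAC below) against those of C57BL/6, the wild type, after 24 h on an antibody to CD3. It used 7 of the 28 arrays of the series, chosen by the strain and time in their labels, and covered all 17097 named genes. The 3 Sle1b.BAC arrays and 2 of the 4 C57BL/6 arrays are labelled biological and were tested, while the other two C57BL/6 arrays are labelled technical and served as a check. C57BL/6 carries no added interval or transgene in the labels. Sle1b.BAC is named for a congenic interval, Sle1b, and for a bacterial artificial chromosome (BAC) carrying the H1 splice form of Slamf6, so it differs from C57BL/6 in both. Another strain of the series, B6.Sle1b, has the interval without the BAC. All mice were females aged 12 weeks, the cells were total CD4+ T cells with no further sort named, and the antibody was bound to the plate at 0.1 µg/ml. The labels used here give neither the number of BAC copies nor of founder lines, and do not state whether each array stands for its own animal. The p-values therefore measure only scatter among arrays, part of which may be technical. That scatter was estimated jointly from all biological arrays of the series, including B6.Sle1b and the other times, and not from the tested arrays alone.

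Slamf6, also called Ly108, belongs to the SLAM receptors, lymphocyte surface proteins that mostly bind their own kind on neighbouring cells. Their cytoplasmic tails recruit small adaptors such as SAP, the product of Sh2d1a, and the kinase Fyn, which adjust T cell receptor signals, cytokine output and help to B cells. Several genes of the family, among them Cd84, Slamf1 and Ly9, lie side by side with Slamf6 in the Sle1b region of chromosome 1. Slamf8 and Slamf9 lie farther off, with other genes between. Slamf6 is known in mice as a gene of several splice forms.

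Values are log2 intensity, differences are log2 Sle1b.BAC minus C57BL/6 with their standard error (SE). Genes with a limma adjusted p below 0.05 are termed called. Over the 28 arrays the median lay between log2 3.18 and 3.39, and non-specific control probe sets placed background at log2 2.76 to 3.21. The CD4+ T cell markers were bright in both groups, with all 8 measured above background and a mean of 9.01 and 9.09 in C57BL/6 and 8.93 to 9.13 in Sle1b.BAC, whereas Cd8a and Cd8b1 averaged 3.82 to 3.96 over the 5 arrays. The typical SE of a difference was 0.19, the median over genes, and precision was limited by the few arrays. The technical arrays differed from the biological ones by a median of 0.11 (array 3 against array 1) and 0.14 (array 4 against array 2) per gene. The other pairings gave 0.16 (array 4 against array 1) and 0.20 (array 3 against array 2), beside 0.18 between the 2 biological arrays.

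After 24 h few genes were called between the strains, which with so few arrays does not show that the other genes were equal. Of 17097 genes, 6 were called (0.0351%), 5 higher in Sle1b.BAC (0.0292%) and 1 lower (0.00585%). The higher ones were Slamf6, the Th17 cytokine gene Il17a, the pseudogene Pisd-ps3, Efcab7, which encodes an EF-hand protein of primary cilia, and the long non-coding RNA gene BC062258. The lower one was Slc25a37, which encodes mitoferrin, an iron importer of mitochondria. An unadjusted p under 0.05 was reached by 392 genes (2.29%), 146 higher (0.854%) and 246 lower (1.44%), where 855 are expected by chance. Between the 3 Sle1b.BAC and the 2 biological C57BL/6 arrays, 1429 genes (8.36%) did not overlap with Sle1b.BAC higher and 2029 (11.9%) with Sle1b.BAC lower. In bulk RNA, fewer cells of a type and less RNA per cell cannot be told apart, and this holds for every gene below.

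**Figure D1:**
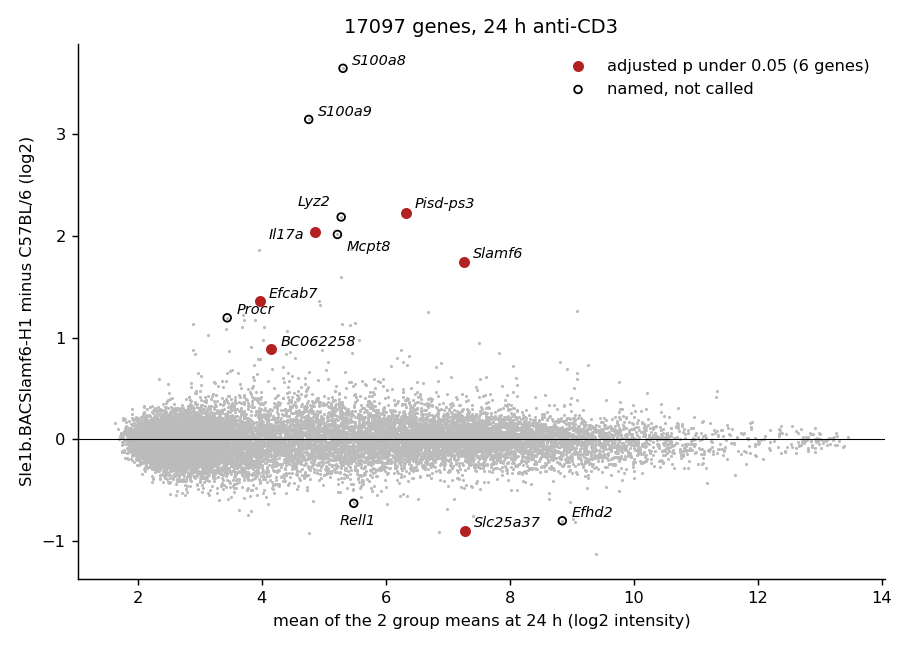
Difference between Sle1b.BACSlamf6-H1 and C57BL/6 at 24 h (vertical, log2) against the mean of both group means (horizontal, log2 intensity), 1 point per gene. The 6 called genes are filled, and some open circles, such as S100a8 at 3.64, lie farther from 0 without being called.

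The promoter windows of the called genes are shown because these genes differed between the strains after T cell receptor stimulation, which acts in part through the transcription factors NFAT and AP-1. RefSeq (GRCm38.p6) windows of 300 bases, from 250 before to 50 after the gene's start, were found for 3 of the 6, all on the plus strand, and Efcab7, Slc25a37 and Pisd-ps3 are named only. Slamf6 is at chr1:171917212-171917511, Il17a at chr1:20730655-20730954 and BC062258 at chr4:99929568-99929867. Capitals mark GGAAA, the NFAT core, or TGANTCA, an AP-1 site, on either strand.
Slamf6: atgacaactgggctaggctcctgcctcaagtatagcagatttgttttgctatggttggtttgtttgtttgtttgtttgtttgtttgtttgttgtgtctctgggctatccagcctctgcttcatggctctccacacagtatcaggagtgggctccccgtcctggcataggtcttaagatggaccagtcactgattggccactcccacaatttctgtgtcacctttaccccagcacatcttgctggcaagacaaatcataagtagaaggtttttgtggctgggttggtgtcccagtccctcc
Il17a: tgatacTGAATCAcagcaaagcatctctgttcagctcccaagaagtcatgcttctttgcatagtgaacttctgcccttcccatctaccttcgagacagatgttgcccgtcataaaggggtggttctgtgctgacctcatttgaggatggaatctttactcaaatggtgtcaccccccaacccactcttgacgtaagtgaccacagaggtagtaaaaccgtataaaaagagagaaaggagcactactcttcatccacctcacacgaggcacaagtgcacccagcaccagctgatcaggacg
BC062258: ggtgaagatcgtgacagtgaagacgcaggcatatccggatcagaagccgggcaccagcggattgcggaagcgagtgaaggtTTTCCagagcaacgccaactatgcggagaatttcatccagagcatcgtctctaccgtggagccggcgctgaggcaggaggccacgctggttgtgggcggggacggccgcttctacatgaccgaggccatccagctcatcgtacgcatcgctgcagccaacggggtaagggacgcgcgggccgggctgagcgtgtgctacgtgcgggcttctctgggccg

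The Il17a window held 1 TGANTCA and the BC062258 window 1 GGAAA on the minus strand, the Slamf6 window held neither, and no window held both. Of 32851 promoter windows of the same length, 7.81% held TGANTCA and 61.3% GGAAA. A match describes these letters and is not a measured site.

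Slamf6 itself gave the smallest p, and its direction depended on the probe set. The probe set that stands for the gene, 1420659_PM_at, measured 6.59 and 6.19 in C57BL/6 (6.93 and 6.35 on the technical arrays) and 8.11, 8.12 and 8.17 in Sle1b.BAC. All Sle1b.BAC arrays were higher than all C57BL/6 arrays, and they lay close together. The difference was 1.74 ± 0.19 (SE, 3 against 2 arrays), 3.35-fold, with a limma adjusted p of 1.05e-04. A second probe set, 1425086_PM_a_at, read the opposite way, at 8.66 and 8.28 in C57BL/6 and 6.39, 6.86 and 6.70 in Sle1b.BAC, a difference of -1.82 ± 0.23. The third, 1457773_PM_at, measured 4.21 and 3.94 in C57BL/6 but 2.52, 2.67 and 2.44 in Sle1b.BAC, which is at background, so it was at least 2.26-fold lower. Tested with all 45141 probe sets, of which 13 were called (0.0288%), these 3 had limma adjusted p-values of 1.42e-04, 0.00116 and 1.40e-05. The mean of the 3 probe sets was lower in Sle1b.BAC, by -0.54 (adjusted p = 0.593). Which transcripts each probe set reads, and whether strain sequence differs where the probes bind, was not analysed here.

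**Figure D2:**
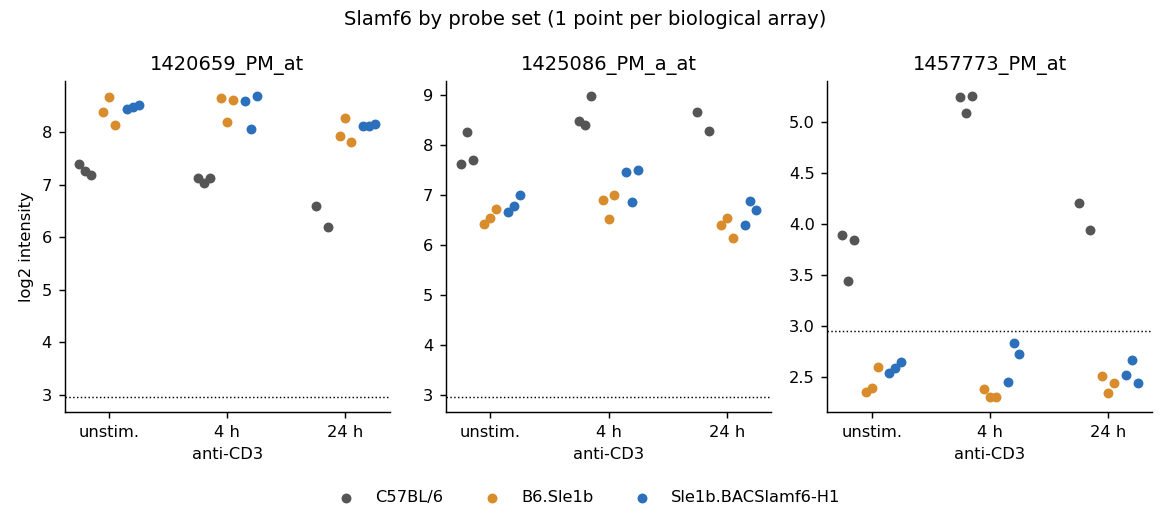
Log2 intensity of the 3 Slamf6 probe sets on each biological array, by strain (colour) and time on anti-CD3, with the dotted line at the mean background. At 24 h the first probe set is higher in Sle1b.BACSlamf6-H1 (8.11 to 8.17) than in C57BL/6 (6.19 and 6.59), and the other two are lower.

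The strain differences of the Slamf6 probe sets, in their opposite directions, were present before stimulation. The first probe set averaged 7.28 in unstimulated C57BL/6 and 8.49 in unstimulated Sle1b.BAC (3 arrays each), and 7.10 and 8.45 after 4 h. From unstimulated to 24 h it fell by 0.89 ± 0.19 in C57BL/6 (adjusted p = 8.1e-04), whereas the change of the second was 0.62 ± 0.23 and that of the third 0.35 ± 0.14, neither of them called over all probe sets (adjusted p = 0.0669 and 0.0893). The strain difference of the first was 1.20 ± 0.17 unstimulated (adjusted p = 0.00117), 1.35 ± 0.17 at 4 h (adjusted p = 0.00117) and 1.74 at 24 h. For the second it was -1.05 ± 0.21 unstimulated, not called over all probe sets (adjusted p = 0.0857), and -1.35 ± 0.21 at 4 h (adjusted p = 0.0105). For the third the fitted differences were -1.14 and -2.53 (SE 0.12 each), called at both times, with Sle1b.BAC at 2.45 to 2.83 on those arrays. For the first probe set the change in that difference from unstimulated to 24 h, 0.54 ± 0.25, was not called (adjusted p = 1).

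Among the other SLAM receptors and adaptors no gene was called, so Slamf6 was 1 of the 10 measured members of 13 listed. Cd84, a receptor of the same cluster, measured 7.75 and 7.65 in C57BL/6 and 8.39, 8.59 and 8.27 in Sle1b.BAC, a difference of 0.72 ± 0.21 (unadjusted p = 0.00277, adjusted p = 1). Its arrays did not overlap, and it lay at 0.73 at 4 h but -0.06 in unstimulated cells. Sh2d1a, the gene of the adaptor SAP, measured 7.38 and 7.40 against 6.77, 6.95 and 6.71, a difference of -0.58 ± 0.18 (adjusted p = 1), with the technical arrays at 7.56 and 7.68. Slamf1 (0.29 ± 0.21), Slamf8 (0.41 ± 0.24) and Fyn (0.15 ± 0.27) were not called, and their 95% intervals included 0. Further probe sets lay at 0.28 ± 0.21 for Cd84 and at 0.47 ± 0.32 and -0.03 ± 0.23 for Slamf1, without a call. Ly9, Slamf9, Cd244a and Sh2d1b1 lay between -0.01 and 0.11. The median of the list was 0.13, beside -0.01 over all genes.

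The genes around Slamf6 on chromosome 1 were examined next. Of the 50 tested genes nearest to it, 25 on each side, none was called by limma. An unadjusted limma p under 0.05 was reached by 392 of all 17097 genes (2.29%) and by 4 of these 50. They were Cd84, Fcer1a, the alpha chain of the high-affinity IgE receptor (1.11 ± 0.32), the haem synthesis gene Ppox (-0.92 ± 0.36) and the mitochondrial import gene Tomm40l (-0.47 ± 0.19). Fcer1a owed its size mainly to Sle1b.BAC array 3, at 5.30 beside 3.46 and 3.95, and the technical C57BL/6 arrays, at 3.52 and 3.72, fell within the Sle1b.BAC range. Without that array the Fcer1a difference was 0.58, and without C57BL/6 array 1 that of Ppox was -0.54. The median of the 50 neighbours was -0.00042. Arrays of 14 of the 50 did not overlap, beside 8.36% of all genes with Sle1b.BAC higher and 11.9% with it lower.

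Il17a, which encodes the defining cytokine of Th17 cells, was 4.11-fold higher in Sle1b.BAC. It measured 3.89 and 3.80 in C57BL/6, 3.99 and 3.57 on the technical arrays, and 6.36, 5.32 and 5.97 in Sle1b.BAC. Every Sle1b.BAC array lay above every C57BL/6 array, with array 2 the lowest of the 3. The mean of the biological C57BL/6 arrays, 3.84, lay less than 1 log2 unit above their background of 2.85 and 2.88. The difference was 2.04 ± 0.32 (adjusted p = 0.0122). In unstimulated cells it was 0.16 ± 0.29, and at 4 h it was 1.40 ± 0.29, which was not called (adjusted p = 0.0900). The call at 24 h was kept without Sle1b.BAC array 2 and lost without any other of the 5 arrays, with adjusted p-values up to 0.366 and a difference of 1.80 to 2.32. It was lost too with only the groups compared, with only the 24 h groups and with the replicate number as a block.

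No other helper cytokine gene or regulator was called. Of 14 Th17 genes listed, 10 were measured, and after Il17a the smallest p belonged to Il21, a cytokine of Th17 and follicular helper cells (0.97 ± 0.51, adjusted p = 1). Il21 measured 5.20 and 4.97 in C57BL/6 and 5.47, 4.96 and 7.74 in Sle1b.BAC, so the groups overlapped and array 3 stood apart, with a difference of 0.13 without it. The receptor gene Ccr6 (0.27), the regulator Rora (0.12) and the transcription factor gene Batf (0.07) had unadjusted p-values of 0.184, 0.686 and 0.744. Of 18 Th1 and cytotoxic genes measured, none was called, and Il18r1, a chain of the interleukin 18 receptor (0.39 ± 0.15), was the only one with an unadjusted p under 0.05. Ifng, the main Th1 cytokine gene, measured 9.72 and 9.24 against 10.35, 9.75 and 10.04, a difference of 0.57 ± 0.34 with a 95% interval of -0.13 to 1.27. Its groups did not overlap, but array 2 of Sle1b.BAC (9.75) was next to array 1 of C57BL/6 (9.72). The 11 Th2 genes measured had no unadjusted p under 0.05, with Il4 at 0.15, Il13 at -0.23 and the growth factor gene Il3 at 0.90 (limma unadjusted p = 0.128). Of 16 follicular helper genes measured, none was called, and Sh2d1a alone reached an unadjusted p under 0.05. Il2 lay at 0.12 and the other 12 measured genes of the IL-2 receptor axis between -0.17 and 0.57, without a call.

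Efcab7 and BC062258 are close together on chromosome 4. Efcab7 measured 3.36 and 3.22 in C57BL/6, 3.48 and 3.46 on the technical arrays, and 4.55, 4.56 and 4.82 in Sle1b.BAC. The groups were well apart, although C57BL/6 lay less than 1 log2 unit above background. The difference was 1.36 ± 0.17, 2.56-fold (adjusted p = 6.29e-04), and lost its call without C57BL/6 array 2 (adjusted p = 0.0730) or with only the groups compared. BC062258 measured 3.72 and 3.70 in C57BL/6 and 4.50, 4.39 and 4.89 in Sle1b.BAC, without overlap. Its difference was 0.89 ± 0.15, 1.85-fold (adjusted p = 0.0281). That call was lost with median centring, with only the groups compared (limma adjusted p = 0.807) and with only the 24 h groups. A block on the replicate number and a variance trend lost it as well. Pgm1, a phosphoglucomutase gene, is the only tested gene listed between them, and RefSeq places BC062258 inside the interval of Pgm1, so that the BC062258 window printed above lies in Pgm1 as well. Pgm1 measured 7.20, 7.08 and 7.45 in Sle1b.BAC and 7.72 and 7.63 in C57BL/6, a difference of -0.43 ± 0.19 (unadjusted p = 0.0340), which was not called. The technical C57BL/6 arrays measured 7.36 and 7.39 for Pgm1, within the Sle1b.BAC range. Itgb3bp, the next tested gene on the other side of Efcab7, lay at 0.23 ± 0.32 with overlapping arrays. The call for BC062258 was lost without each array except Sle1b.BAC array 2, with an adjusted p up to 0.529 and a difference of 0.74 to 0.99.

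The largest called difference was that of Pisd-ps3, a pseudogene of the phosphatidylserine decarboxylase gene Pisd. It measured 5.53 and 4.90 in C57BL/6 and 7.36, 7.44 and 7.50 in Sle1b.BAC, a difference of 2.22 ± 0.33 or 4.67-fold (adjusted p = 0.00579). All Sle1b.BAC arrays lay above all C57BL/6 arrays. Its other two probe sets were at 0.34 ± 0.26 and 0.55 ± 0.18 at 24 h and were not called over all probe sets, and whether its probes also read related copies was not analysed here. With the mean of the 3 probe sets the difference was 1.04 and lost its call, as did the first probe set without C57BL/6 array 2 (1.91). The difference of the first probe set was 2.20 ± 0.29 unstimulated and 1.95 ± 0.29 at 4 h, called at both times. In the order above, the other 2 lay at 1.33 ± 0.23 and 1.17 ± 0.16 unstimulated. Both were called there over all probe sets (limma adjusted p = 0.0314 and 0.00187). At 4 h they lay at 0.96 ± 0.23, not called, and 0.99 ± 0.16, called (limma adjusted p = 0.0146).

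Slc25a37 was the only gene called lower. It measured 7.67 and 7.79 in C57BL/6, 7.50 and 7.74 on the technical arrays, and 6.80, 6.81 and 6.89 in Sle1b.BAC. The groups did not overlap, and the difference was -0.90 ± 0.15, 1.86-fold (adjusted p = 0.0159). The probe set is of the x_at kind, whose probes can match other transcripts, and the other two Slc25a37 probe sets lay at -0.29 ± 0.32 and 0.14 ± 0.36, the mean of all 3 being at -0.35 without a call. Slc25a37 lost its call without each of the 5 arrays in turn, with an adjusted p up to 0.529, although the difference stayed between -0.96 and -0.84. It was -0.51 ± 0.13 unstimulated and -0.68 ± 0.13 at 4 h, where it was not called (adjusted p = 0.472 and 0.0510).

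**Figure D3:**
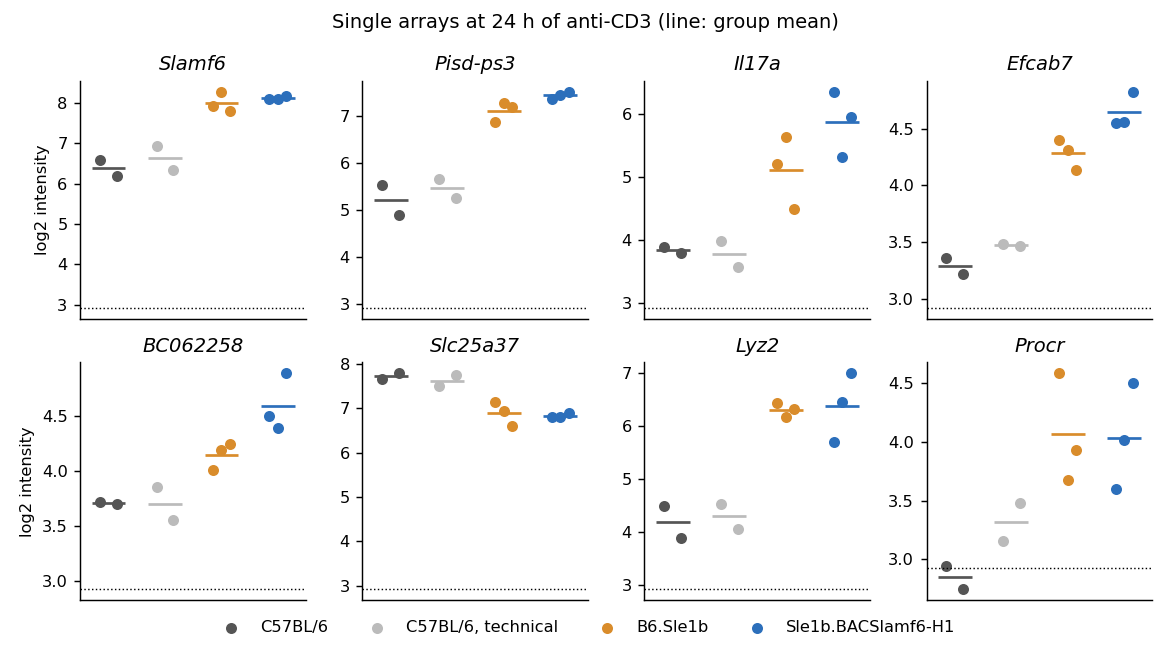
Log2 intensity on each 24 h array of the 6 called genes and of Lyz2 and Procr, which missed the threshold, in C57BL/6 (biological dark grey, technical light grey), B6.Sle1b (orange) and Sle1b.BACSlamf6-H1 (blue). Lines are group means, the dotted line is background, and vertical scales differ between panels. For Efcab7 the Sle1b.BACSlamf6-H1 arrays sit at 4.55 to 4.82, above C57BL/6 at 3.22 and 3.36.

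The named genes with the smallest p among those higher in Sle1b.BAC but not called included Lyz2 and Procr. The genes of this paragraph were picked from those whose arrays did not overlap, so their lack of overlap is not a separate result. Of all genes, 8.36% did not overlap with Sle1b.BAC higher. Lyz2, the lysozyme of myeloid cells, measured 4.50 and 3.88 in C57BL/6 and 5.70, 6.44 and 6.99 in Sle1b.BAC, a difference of 2.18 ± 0.40 (adjusted p = 0.0562). Its probe set is also of the x_at kind. Procr, the protein C receptor gene, measured 2.94 and 2.74 in C57BL/6, at background, and 3.60, 4.02 and 4.50 in Sle1b.BAC, at least 2.18-fold higher (1.19 ± 0.22, adjusted p = 0.0562). The technical C57BL/6 arrays gave 3.15 and 3.48 for Procr, above the biological ones and below Sle1b.BAC. Mcpt8, a protease gene of basophils, measured 3.92 and 4.50 against 5.84, 5.58 and 7.25 (2.01 ± 0.49, adjusted p = 0.612). The prostaglandin synthase gene Ptgs2 (1.22 ± 0.33) and the complement factor gene Cfb (1.13 ± 0.28, at least 1.51-fold) were not called either. Nor were the lectin gene Mgl2 (0.87 ± 0.25, at least 1.38-fold) and the formyl peptide receptor gene Fpr2 (0.79 ± 0.22). Sle1b.BAC array 3 was the highest array for Lyz2, Procr, Mcpt8, Ptgs2, Cfb, Mgl2 and Fpr2. Without it these 7 differences lay between 0.59 (Mgl2) and 1.88 (Lyz2), with Procr at 0.96 and Ptgs2 at 0.77.

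Markers of other cells were examined as whole lists beside these genes. For neutrophils 12 of 13 markers were measured, their summed intensity was 146 and 160 in C57BL/6 and 262 to 711 in Sle1b.BAC, and the median difference was 0.48. S100a8, a calprotectin chain of neutrophils, measured 4.69 and 2.28 against 5.89, 7.29 and 8.22 (3.64 ± 1.28, unadjusted p = 0.00965, adjusted p = 1). Its partner S100a9 measured 3.54 and 2.83 against 4.92, 6.66 and 7.40 (3.14 ± 1.32). Both were without overlap but spread widely within each group, and neither was called. The secreted protease inhibitor gene Slpi lay at 1.14 ± 0.51, whereas the neutrophil genes Csf3r, Mmp9, Cxcr2, Ltf and Stfa3 lay between -0.10 and 0.04, with Lcn2 and Stfa3 at background in both groups. For monocytes and macrophages 15 of 16 markers were measured, with a summed intensity of 832 and 935 in C57BL/6 and 763 to 894 in Sle1b.BAC and a median of -0.06. Lyz2 was the only one of these 15 with an unadjusted p under 0.05, and C1qa, C1qb, Vcam1 and Itgam were at background in both groups. The part of these cells in the differences above was not tested.

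The B cell markers lay on the other side of 0. Of 16 listed, 15 were measured and 14 were below 0, with a median of -0.24 and a summed intensity of 1788 and 2325 in C57BL/6 and 1421 to 1627 in Sle1b.BAC. The B cell receptor gene Cd79b measured 7.09 and 6.55 against 6.08, 6.32 and 6.29 (-0.59 ± 0.27), and Ms4a1, the gene of CD20, 8.08 and 7.49 against 6.99, 7.04 and 7.06 (-0.75 ± 0.35). Arrays of both genes did not overlap, and neither was called (adjusted p = 1). H2-Oa, which encodes part of the H2-O heterodimer that tunes class II peptide loading, mainly in B cells, measured 5.88 and 5.63 against 5.16, 5.06 and 5.24 (-0.60 ± 0.13, adjusted p = 0.359). H2-Oa is not one of the listed markers. It was picked for its small p among genes lower in Sle1b.BAC whose arrays did not overlap, so its direction is not a separate result. Pax5 and Cr2 were at background in both groups, and the part of B cells in these values was not tested. C57BL/6 array 1 was the higher of its pair for Cd79b and Ms4a1, and without it their differences were -0.32 and -0.46. Jchain, a plasma cell gene, measured 7.73 and 9.19 in C57BL/6 and 9.22, 9.81 and 10.13 in Sle1b.BAC (1.26 ± 0.42), with the technical arrays at 7.56 and 9.24, and was 1 of 5 plasma cell markers measured, none called. Its difference was 0.53 without C57BL/6 array 1 and 1.99 without array 2. Of 6 platelet markers 5 were below 0 (median -0.38, and -0.03 without C57BL/6 array 1), with a summed intensity of 170 and 282 in C57BL/6 and 157 to 225 in Sle1b.BAC. Hba-a1, a haemoglobin chain gene of red cells, measured 10.77 and 9.16 in C57BL/6 and 7.47, 9.84 and 9.19 in Sle1b.BAC, overlapping (-1.13 ± 0.62), and the 7 erythroid markers summed to 3037 and 1788 in C57BL/6 and 1497 to 2112 in Sle1b.BAC. The medians of the erythroid, NK, CD8 and dendritic cell lists lay between -0.21 and -0.03, with the erythroid one at -0.03 without C57BL/6 array 1, and that of dendritic cells turned to 0.003 when the arrays were quantile normalized again.

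Genes below the C57BL/6 level but not called had varied functions. The genes of this paragraph, in either direction, were picked from those whose arrays did not overlap, so their lack of overlap is not a separate result. Of all genes, 11.9% did not overlap with Sle1b.BAC lower and 8.36% with Sle1b.BAC higher. Efhd2, a calcium-binding protein gene, measured 9.19 and 9.30 in C57BL/6 and 8.57, 8.31 and 8.46 in Sle1b.BAC (-0.80 ± 0.18, adjusted p = 0.396), but a second Efhd2 probe set lay at 0.44 ± 0.21. Rell1, of the RELT receptor family, measured 5.98 and 5.61 against 5.21, 5.12 and 5.18 (-0.63 ± 0.18, adjusted p = 1), and its second probe set lay at -1.14 ± 0.29. Serpinc1, the antithrombin gene, was at -0.74 ± 0.17, the kinase gene Sgk3 at -0.57 ± 0.17, the sulfatase gene Arsk at -0.60 ± 0.19 and the spindle gene Fam83d at -0.49 ± 0.14. The zinc finger gene Zkscan14 was at -0.39 ± 0.12. Art4 and Mbl1 reached background in Sle1b.BAC and were at least 1.27-fold and 1.05-fold lower. On the other side, the helicase gene Recql4 (0.69 ± 0.19) and the homeobox gene Hmbox1 (0.62 ± 0.16) were not called. Nor was Cdk5rap1, a tRNA and mitochondrial RNA modifying enzyme gene (1.25 ± 0.29). Technical array 4 lay within the Sle1b.BAC range of Hmbox1 at 4.81, as did technical array 3 for Fam83d (3.59) and Art4 (2.81).

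Genes linked to T cell receptor stimulation were compared list by list, and none was called. From unstimulated to 24 h in C57BL/6, the median change was -0.34 for the immediate early and receptor-induced regulators. It was 0.07 for the activation surface markers and 0.26 for the chemokine and receptor genes. A strain difference above 0 is therefore not by itself a larger rise after stimulation. Of 22 immediate early and receptor-induced regulators measured, 19 were above 0, with a median of 0.27, beside 7901 of all 17097 genes above 0 and a median of -0.01. Ier3, an early response gene of cell survival, measured 3.11 and 2.97 in C57BL/6 and 3.99, 3.13 and 4.60 in Sle1b.BAC (0.87 ± 0.25, unadjusted p = 0.00270). It was the only one of the 22 with an unadjusted p under 0.05, and the technical C57BL/6 arrays, at 3.25 and 3.63, overlapped the Sle1b.BAC arrays. Without Sle1b.BAC array 3 the Ier3 difference was 0.52. C57BL/6 array 2 stood apart in this list, with Egr1 at 9.34 and 8.23 in C57BL/6 against 9.34, 9.49 and 9.04 in Sle1b.BAC. Nr4a1, an orphan nuclear receptor gene, measured 9.32 and 8.25 against 9.47, 9.45 and 8.65. Without C57BL/6 array 2, 10 of the 22 genes were above 0 and the median was -0.0035, and without array 1 it was 0.44. The AP-1 genes Fosl2 (0.79 ± 0.41) and Fos (0.43) and the growth factor response gene Egr1 (0.50) had unadjusted p-values of 0.0689, 0.170 and 0.227, and without C57BL/6 array 2 the Fosl2 difference was 0.38. Of 16 activation surface markers measured, 15 were above 0 (median 0.14, and 11 with a median of 0.03 without C57BL/6 array 2). Ctla4, the inhibitory receptor gene, measured 7.17 and 7.23 against 7.69, 7.54 and 7.92 (0.52 ± 0.16, adjusted p = 1), without overlap, while Cd69 was at 0.17 and Cd44 at 0.09. Among 18 chemokine and receptor genes measured (median 0.17, and 0.0083 without C57BL/6 array 2), Ccr2 was at 0.80 ± 0.27 and Cxcl9 at 0.95 ± 0.45, both highest on Sle1b.BAC array 3, without which they were at 0.47 and 0.34.

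The medians of the proliferative and metabolic programmes lay near 0 with all arrays, and some moved when single arrays were left out. Of 24 replication genes the median was -0.03 and of 21 mitosis genes -0.07, although their medians in C57BL/6 from unstimulated to 24 h were 2.47 and 1.86. In that response 4157 genes were called (24.3%), against 6 between the strains. Ribosome biogenesis (22 genes, median 0.05), cholesterol synthesis (16, -0.04), the ATF4 amino acid genes (18, 0.04), heat shock (9, 0.10) and apoptosis genes (15, -0.06) held no unadjusted p under 0.05. Without C57BL/6 array 1 the medians of mitosis (0.09), cholesterol synthesis (0.14) and apoptosis genes (0.09) lay above 0. Without C57BL/6 array 2 they were -0.23, -0.12 and -0.29. Without Sle1b.BAC array 3 the mitosis median was -0.27, with 1 of the 21 genes above 0. Of 17 glycolysis genes, 15 were above 0 (median 0.11), and the pyruvate kinase gene Pkm was at 0.34 ± 0.16. The interferon lists were near 0 as well, with medians of 0.04 for type I (19 genes) and -0.09 for interferon gamma (18 genes), and Mx1, an antiviral GTPase gene at background in C57BL/6, was at least 1.26-fold higher without a call (0.42 ± 0.16). Of 18 memory and effector genes 14 were above 0 (median 0.09), among them Anxa1, the annexin of leukocytes, at 0.84 ± 0.31 without overlap. T cell receptor signalling (16 genes, median 0.12), naive (13, 0.02), regulatory T cell (13, 0.11) and TNF superfamily genes (19, 0.05) had no called member, with Cd3d, a CD3 chain gene, at -0.28 ± 0.12.

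**Figure D4:**
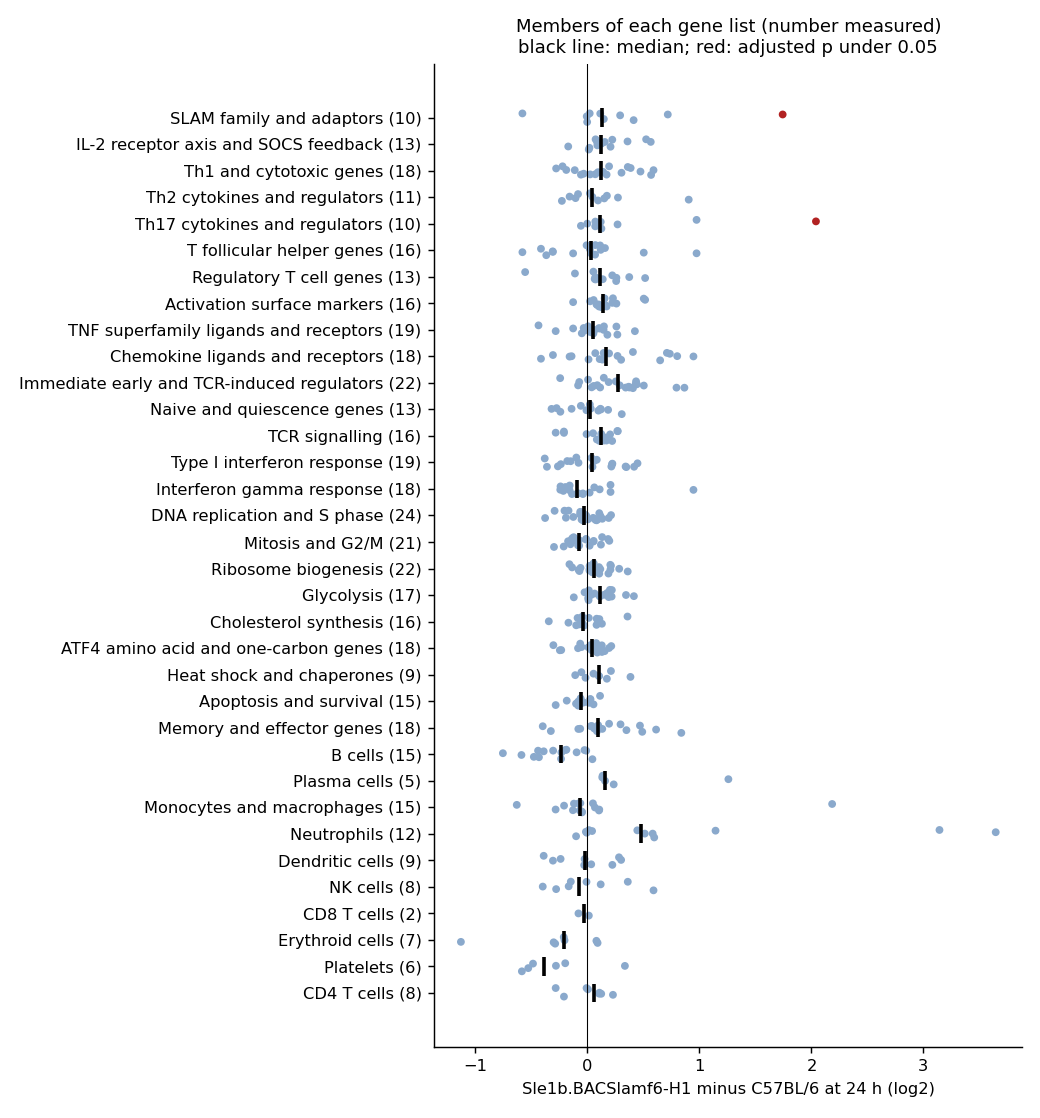
Difference between Sle1b.BACSlamf6-H1 and C57BL/6 at 24 h (horizontal, log2) for the measured members of each gene list, with their number in brackets and the median as a black bar. Slamf6 at 1.74 and Il17a at 2.04 are the called members, and the neutrophil list reaches 3.64 without a call.

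The same strains were compared at the other times to place the 24 h differences. In unstimulated cells, 10 genes were called (0.0585%), and at 4 h 11 (0.0643%), with 3 arrays in every group. Pisd-ps3 and Slamf6 were called at all 3 times, and Slc25a37, Il17a, Efcab7 and BC062258 at 24 h only. Efcab7 was at 0.11 ± 0.15 unstimulated and 0.35 ± 0.15 at 4 h, beside 1.36 at 24 h, and Procr at 0.10 ± 0.20 and -0.22 ± 0.20, beside 1.19. Rell1 (-1.66 unstimulated, -1.22 at 4 h), Efhd2 (-1.31 and -1.22), H2-Oa (-0.87 and -0.74) and Cdk5rap1 (1.59 and 1.52) were called at both earlier times and not at 24 h. Whether the strain difference itself changed was tested as an interaction, and limma called 0 genes for 24 h against unstimulated (315 at an unadjusted p under 0.05, 1.84%) and 0 against 4 h (413, 2.42%). The smallest adjusted p was 0.309, for Efcab7, whose strain difference was 1.25 ± 0.23 larger at 24 h than unstimulated. For Il17a the same change was 1.88 ± 0.43, for Procr 1.10 ± 0.30 and for Rell1 1.03 ± 0.24, with an adjusted p of 1 each. A call at 1 time and not at another is therefore not shown to be a difference between times.

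**Figure D5:**
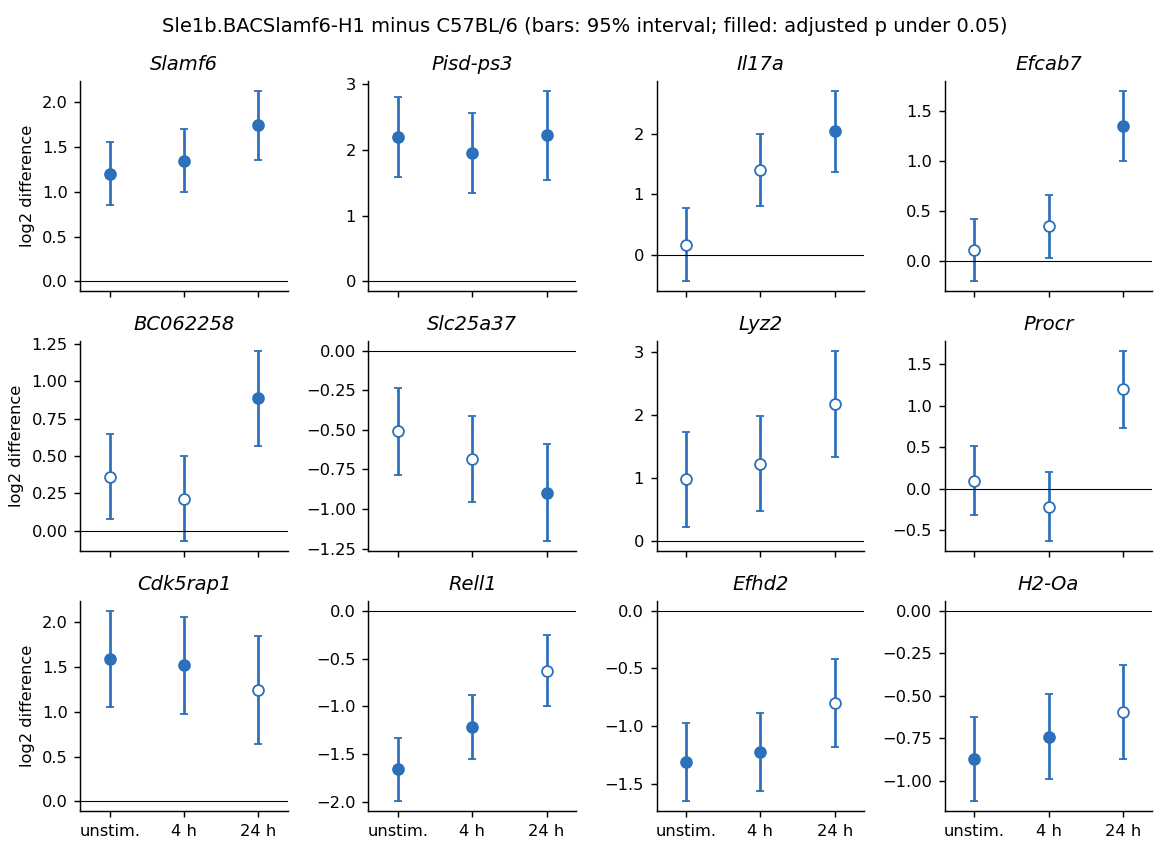
Difference between Sle1b.BACSlamf6-H1 and C57BL/6 (log2, with 95% interval) unstimulated and after 4 h and 24 h of anti-CD3 for 12 genes, filled where called and with vertical scales that differ. Slamf6 and Pisd-ps3 are called at each time, and Efcab7 goes from 0.11 to 1.36.

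B6.Sle1b, which has the interval but no BAC, was set beside Sle1b.BAC at 24 h. Against C57BL/6, 7 genes were called in B6.Sle1b (0.0409%), a comparison that shares the C57BL/6 arrays with the one above. The Slamf6 difference was 1.62 ± 0.19 in B6.Sle1b and 1.74 ± 0.19 in Sle1b.BAC, that of Pisd-ps3 1.89 and 2.22, and that of Slc25a37 -0.84 and -0.90. For Efcab7 the values were 0.99 and 1.36, for Il17a 1.27 and 2.04, and for BC062258 0.44 and 0.89. Tested directly, Sle1b.BAC minus B6.Sle1b called 0 genes in limma (908 at an unadjusted p under 0.05, 5.31%). The direct difference was 0.12 ± 0.17 for the first Slamf6 probe set, 0.30 ± 0.21 for the second and 0.11 ± 0.12 for the third, and 0.77 ± 0.29 for Il17a, 0.36 ± 0.15 for Efcab7 and 0.45 ± 0.14 for BC062258. On single arrays Il17a measured 5.22, 5.64 and 4.49 in B6.Sle1b and 5.32 to 6.36 in Sle1b.BAC, so the 2 strains overlapped, whereas for BC062258 they did not (4.01 to 4.24 against 4.39 to 4.89). For S100a8 the difference from C57BL/6 was 3.95 in B6.Sle1b and 3.64 in Sle1b.BAC.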

How the data were processed

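Each sample's total RNA was run on its own Affymetrix HT MG-430 PM array. The deposited table gives linear intensity values of 45141 probe sets, made by the authors with RMA per the submitters' processing notes (its version is not given in the sources used here), and log2 was taken here with nothing added or filtered. Per the platform annotation, 28898 probe sets have 1 gene symbol, 551 several and 15692 none, and 28689 of the first kind were matched to RefSeq (GRCm38.p6) by Entrez identifier. Genes without such a probe set were not analysed here. Each of the 17097 genes was read from its probe set with the highest mean. Background was the 95th percentile of 23 non-specific control probe sets per array; where a group's mean lay at or under it, folds are "at least" values, the brighter group's mean against the higher of background and signal.

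All 26 biological arrays, 9 groups of strain and time, entered 1 limma fit (3.58.1, R 4.3.3) with eBayes, so that groups shared an estimate of the spread. Tests are two-sided, adjusted by Benjamini-Hochberg over all genes, and called under 0.05. The labels do not say which RNA the technical arrays repeat. Replicate numbers were not taken to pair samples, since only 2 numbers are shared by the groups compared. Steps were tested on simulated data. There, 20% of bright genes changed by 0.5 log2 and 58% of those changed by 1 log2 were called. Genes without a call may thus still differ. Named genes were the called genes, up to 15 a direction by smallest p among genes with non-overlapping arrays and a brighter group above background, SLAM members, called neighbours of Slamf6, and up to 4 members of each list; other genes were chosen after their values were seen. Members and the 24 gene and 10 marker lists were chosen with earlier results of these data known. Alternatives covered scaling, filters, probe sets, blocks, weights, covariates and left-out arrays.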

Additional observations from a re-analysis of the deposited data

Results flagged for a closer look

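Probe sets without a gene name in the platform annotation lay outside the comparison of named genes, and 5 of them were called at 24 h when all 45141 probe sets were tested with limma. All were higher in Sle1b.BAC. The largest difference was 3.54 ± 0.54 for 1425763_PM_x_at, which measured 5.20 and 6.91 in C57BL/6 and 8.93, 9.62 and 10.23 in Sle1b.BAC. A pair of others differed by 3.24 and 3.30, and another by 1.26. The last, 1458099_PM_at, differed by 1.13 ± 0.19, at 3.19 and 3.0 against 4.17, 4.05 and 4.46. In B6.Sle1b it measured 3.26, 3.55 and 3.16, but the direct difference between Sle1b.BAC and B6.Sle1b, 0.90 ± 0.17, was not called (adjusted p = 0.230). For the other 4 that direct difference lay between -0.0015 and 0.15. Technical C57BL/6 array 4, at 4.14, lay among the Sle1b.BAC arrays for 1458099_PM_at, and for the probe set at 1.26 the technical arrays, at 5.06 and 5.80, overlapped Sle1b.BAC (5.33 to 5.79). In unstimulated cells the probe sets at 3.54, 3.24 and 3.30 already differed by 2.59, 2.36 and 2.75. Of these, only that at 3.30 was called there (limma adjusted p = 0.0314 over all probe sets). Those at 1.26 and 1.13 differed by -0.05 and 0.08 unstimulated.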

How the results depend on the processing

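The count of 6 called genes at 24 h stayed between 4 and 9 with quantile normalizing again (7), median centring (4), 16 added before the log (7), genes above background only (8), the mean of a gene's probe sets (4), technical arrays averaged and added (9) or, chosen after seeing the data, in place of the biological ones (6), array weights (7) and a variance trend (7). It was 2 with only the groups compared, 3 with only the 24 h groups, 11 with the technical arrays added and 11 with array brightness as covariate. It was 13 (10 higher, 3 lower) with every probe set on its own, also chosen after seeing the data. Leaving out each array in turn gave 1 to 6, with 3 genes called without C57BL/6 array 1, 1 (Slamf6) without array 2, and 3 without Sle1b.BAC array 3. Slamf6 kept its call in all 5, and Efcab7 and Pisd-ps3 in 4. The replicate numbers share 2 values between the groups. Taken as deviations from their group means, same-numbered arrays correlated at -0.13 and 0.17 and differently numbered ones at -0.25 to 0.25. With 2 C57BL/6 arrays these deviations mirror each other, so the correlations cannot show whether samples are paired. A replicate block on the number within a time called 3 genes, and strain and number as a random block called 7. For the interaction with unstimulated cells, 16 added before the log called 2 genes (Efcab7 and Rell1), and for that with 4 h, leaving out each array gave 0 to 1 (Snx20, without C57BL/6 array 1 at 24 h). The Slamf6 difference reversed to -0.54 with the mean of its probe sets, and that of Itgb3bp to -0.076 without C57BL/6 array 2 (-0.076 to 0.54 over the left-out arrays). The causes were not tested. Medians of gene lists without single arrays were also added after seeing the data. No scaling moved the median of all genes by over 0.1. In C57BL/6 the mean signal of Il17a, Efcab7 and BC062258 lay less than 1 log2 unit above background and that of Procr at background.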
